A study of Mus musculus with 5 samples.

Results

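Solute carriers are membrane proteins that move nutrients, ions, vitamins, metals and metabolites across the plasma membrane and the membranes of organelles, and they are grouped into numbered families by sequence. The carriers described here were measured in mouse epiblast stem cells, which are pluripotent cells of the primed kind. A carrier probe was taken as detected when its symbol began with Slc and a number and its detection p-value, which compares its signal with that of negative-control beads, was under 0.01 on at least 1 of 5 arrays. This left 191 of the 474 solute carrier probes on the array, among 25697 probes in all, or 40.3%, against 46.9% of probes of any gene. They stood for 150 of 326 carrier genes (46%, against 50.4% of all genes on the array). The symbols Slc9a3r1, Slc9a3r2, Slc4a1ap and Slc7a6os fit the rule by name, although they are not themselves carriers. They were kept in all counts.

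All cultures were of the line E3, which the label of the untreated sample places on a hybrid background, and all had been kept on CF1 mouse fibroblasts of embryonic origin, inactivated to serve as feeders. Until then their KSR medium held 5 ng/ml FGF2. For the last 3 h the untreated culture received KSR medium with no additions, and so lost FGF2 as well. The other cultures received 1 uM PD0325901 (PD), 3 uM CHIR99021 (CH), 1000 U/ml LIF, or the 3 agents together (PCL). PD0325901 inhibits the kinase MEK and so blocks ERK activation, CHIR99021 inhibits GSK3 and thereby stabilises beta-catenin, and LIF is a cytokine that activates STAT3. Each group was 1 culture on 1 array of total RNA, so a difference between 2 arrays has no replicate check and no p-value. The number of arrays limits the precision. Error beside a difference between arrays is the standard error among a probe's beads (± bead SE, n = 1 array per group). It leaves out the spread between cultures. For an effect in the fit described below, ± is instead the standard error of the fitted term, which does not measure that spread either.

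Levels are background-corrected, quantile-normalized signals on a log2 scale. They can be compared for a probe between arrays but not between probes. The detected probes numbered 10130 to 10981 per array, and the median scanner signal was 83.3 to 91.1. The untreated array, the reference of every comparison, stood apart as the brightest in the upper range: its 75th percentile of the scanner signal was 178, against 137 to 153 on the treated arrays. The 8 epiblast stem cell markers, Pou5f1, Sox2 and Nanog among them, were detected on every array. In the fit described below, Pou3f1, Fgf5, Sox2 and Tdgf1 fell and Nanog rose with PD, Pou3f1, Fgf5 and Otx2 fell with CH, and 0 of the 8 passed with LIF. Of all detected probes, 0.249% rose and 0.473% fell with LIF. The summed level of the 8 markers was 21320 to 24190. Of 6 naive stem cell markers 5 were detected, and Klf4 rose with PD and Esrrb with LIF. Their summed level was 192.6 to 293.8, and Nr0b1 was not detected. The 5 endoderm or mesoderm markers with a probe were detected on at least 1 array, with a summed level of 164.9 to 274.8, and of these Mixl1 rose with CH and Foxa2 fell with PD. The part of such shifts in the carrier differences was not tested. Of 9 feeder fibroblast markers with a probe, 5 were detected and Col1a2, Col3a1, Pdgfrb and Postn were not. Their summed level was 1580 to 1861 over the arrays, and 0 of the 5 passed the fit for any agent. The sum joins opposite differences: with PD, Lum was at -0.58 and Dcn at -0.49 from untreated. Thy1 was at 0.26, Loxl1 at 0.11 and Col1a1 at 0.07. For any agent, at most 1.78% of all detected probes fell and at most 0.78% rose, so 0 of 5 does not show a steady feeder share. In such a mixed RNA sample, fewer cells of a type and less RNA per cell cannot be told apart. The agents left their known marks: Egr1, an immediate early target of ERK, differed by -3.68 (log2) with PD, the Wnt target Sp5 by 3.03 with CH, and the STAT3 target Socs3 by 1.95 with LIF. Smaller differences were seen with other agents. Egr1, highest untreated, differed by -0.79 with CH and -1.30 with LIF. Sp5 differed by -0.24 with PD and 0.85 with LIF, and Socs3 by -0.86 with PD and -0.08 with CH.

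The detected carriers covered 39 of the 51 families on the array. At the gene level, the nucleotide sugar carriers of the Golgi and endoplasmic reticulum, which supply glycosylation, had 18 of 25 genes detected (72.0%). The metal ion carriers had 19 of 28 (67.9%), and the mitochondrial family Slc25, which carries metabolites across the inner membrane, had 25 of 39 (64.1%). The equilibrative nucleoside carriers of family 29 were detected in full, with 4 of 4 genes. Fewer genes were detected among carriers of amino acids (23 of 60, 38.3%), of sugars (10 of 31, 32.3%) and of organic ions and peptides (12 of 37, 32.4%). Of the 12 families with no detected probe, family 26 (anion exchangers) had 10 genes on the array and family 24 (sodium-calcium-potassium exchangers) had 5. An undetected probe does not show that its gene was silent: 26 of the 150 detected genes also had an undetected probe. The groups were drawn by family, so a few members carry something else, such as the iodide carrier Slc5a5 and the vitamin carrier Slc5a6 within the sugar group.

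**Figure D1:**
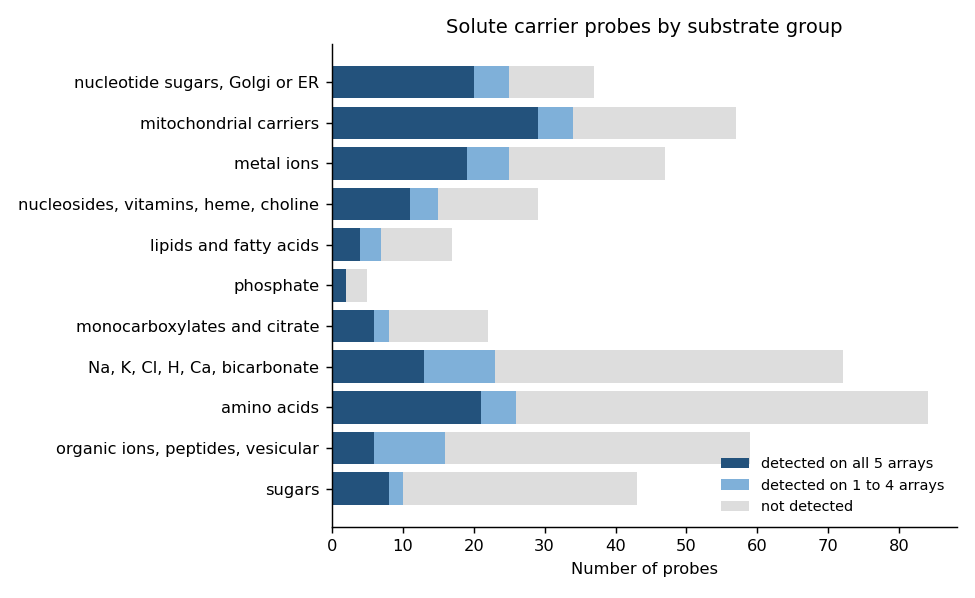
Solute carrier probes by substrate group; the horizontal axis is the number of probes, and each bar is split into probes detected on all 5 arrays, on 1 to 4 arrays, and not detected. The nucleotide sugar group had 25 of 37 probes detected and the sugar group 10 of 43.

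Of the 191 probes, 139 were detected on all 5 arrays (72.8%, against 79.8% of the 12049 detected probes of any gene) and 18 on 1 array only. Those on 1 array only numbered 1, 0, 5, 6 and 6 for untreated, PD, CH, LIF and PCL. Among probes of any gene, the counts were 102, 57, 323, 299 and 224. The PD array had the fewest members detected, 149, and the CH array the most, 172. Over all probes the order was similar: PD detected the fewest, 39.4%, and CH and LIF the most, 42.7% each. Among the 139 probes, 102 varied by less than 0.5 log2 between their highest and lowest array (73.4%, against 76.5% of all such probes). A range of 1 or more was reached by 9 of the 191 probes (4.71%, against 1.94% of all detected probes). These stood for 8 genes, namely Slc46a3, Slc35d3, Slc40a1, both probes of Slc7a7, Slc11a1, Slc27a2, Slc22a7 and Slc38a10. The limit itself divided similar probes: Slc4a3 (probe ILMN_2782061) entered with a detection p-value of 0.00877, while Slc39a14 and Slc2a13 lay just outside at 0.01. A member detected on few arrays entered through the array where it was high, so its difference follows in part from the rule, and a bound is given where only 1 of the 2 arrays detected it.

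The main carriers of glucose differed little between the arrays. The glucose carrier Slc2a1 lay at 12.16 untreated, 12.16 with PD, 11.94 with CH, 12.33 with LIF and 12.12 with PCL. The second main glucose carrier, Slc2a3, lay at 12.02, 12.02, 12.09, 12.18 and 12.22 in the same order. Neither passed a term of the fit described below. The large neutral amino acid carrier Slc7a5 lay at 11.31, 11.18, 11.36, 11.37 and 11.54, and these examples from the mitochondria, chosen after their values were seen, were as steady: the ATP/ADP exchanger Slc25a5 at 13.27, 13.40, 13.49, 13.30 and 13.32, and the mitochondrial phosphate carrier Slc25a3 (ILMN_2751046) at 12.25, 12.22, 12.34, 12.50 and 12.39. The cationic amino acid carrier Slc7a3 was highest untreated, at 12.06, and lowest with PCL, at 11.56, with 11.75, 11.76 and 12.02 for PD, CH and LIF.

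Across the members, the median difference from untreated was -0.04 with PD, -0.00 with CH, -0.00 with LIF and 0.04 with PCL, against 0.00, 0.00, 0.00 and 0.01 for all probes. The lower tail reached further for the members: the 5th percentile was -0.69 with PD and -0.77 with PCL, against -0.49 and -0.52 for all probes. The 4 comparisons share the untreated array. Among the 139 members on all arrays, 31 were highest untreated (22.3%, against 19.1% of all such probes) and 45 were highest with PCL (32.4%, against 24.8%). Fewer were highest with PD, 19 (13.7%, against 23.8%), and 36 were lowest there (25.9%, against 20.8%).

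**Figure D2:**
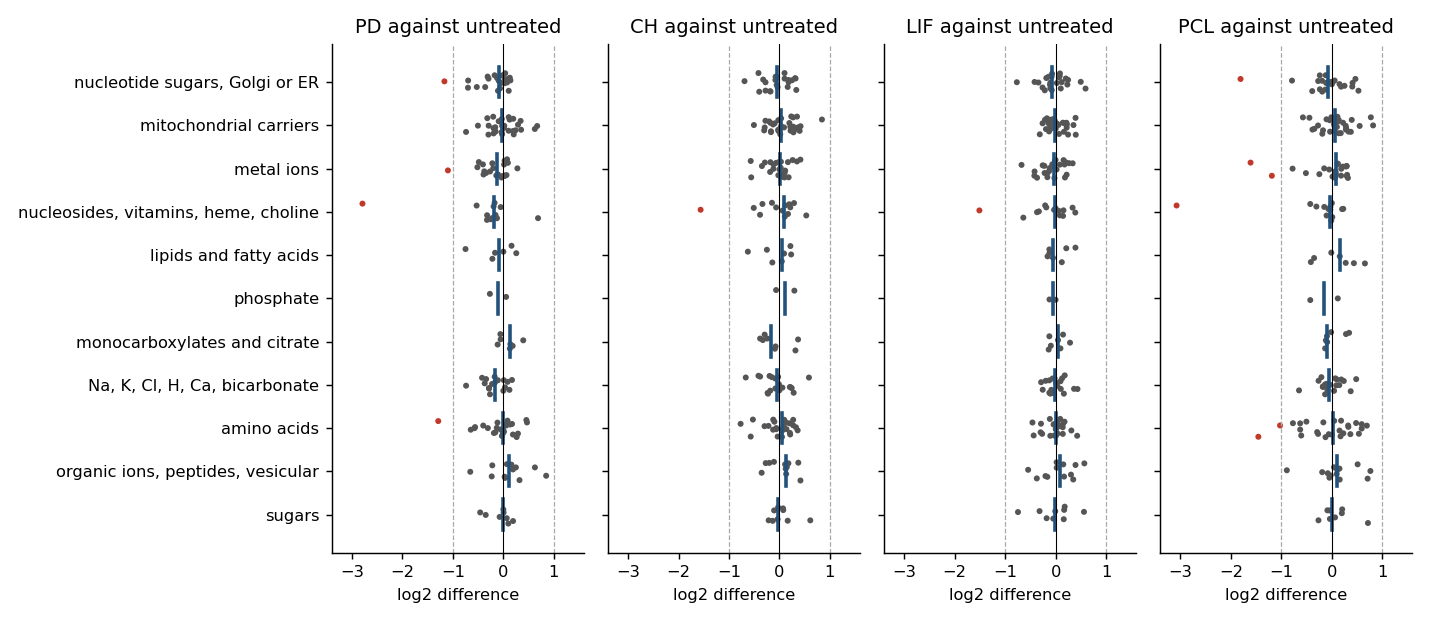
Log2 difference from the untreated array for each member detected on at least 1 of the 2 arrays, by substrate group and agent; blue bars are group medians, dashed lines mark 2-fold, and red points are at least 2-fold different. A probe detected on only 1 of the 2 arrays is drawn at its measured difference, not at its bound. All red points lie on the lower side, and Slc46a3 is the lowest in each panel, at -2.79, -1.56, -1.51 and -3.07.

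Conditions were tested only by an additive limma fit over the 5 arrays with terms for the presence of PD, CH and LIF, run on all 12049 detected probes with Benjamini-Hochberg adjustment. Rose and fell are used only for members with an adjusted p under 0.05 in it. It has 1 residual degree of freedom, by which PCL departs from the added effects of its agents, and the estimate of the prior degrees of freedom was infinite. Its p-values therefore rank probes and do not measure the spread between cultures. The size of that departure had a median of 0.291 log2 over the 139 members and of 0.267 over the 9613 probes on all arrays. With the deposited processed values in place of the normalized signals, 0 probes of any gene passed the fit for any agent. An unadjusted p under 0.05 was held by 14, 20 and 10 of 191 members for PD, CH and LIF. Of all 12049 probes, 916, 890 and 663 had one.

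The comparison of PD with untreated cells sets carrier transcripts after 3 h with the MEK inhibitor against those without it, 1 array each. Dependence on MEK was not tested. At least 2-fold lower were 4 of 165 members (2.42%), against 0.554% of all probes, and 0 were at least 2-fold higher, against 0.12%. The 4 were Slc46a3, Slc7a7, Slc35d3 and Slc40a1, which carry different kinds of substrate. At 1.5-fold, 11 members were lower (6.67%, background 3.34%) and 5 were higher (3.03%, background 2.06%). These counts take measured levels. They include members such as Slc25a32 (lower) and Slc25a24 (higher), detected on only 1 of the 2 arrays and with bounds under 1.5-fold. In the fit 7 member probes of 6 genes, Slc35d3 with its undetected levels among them, fell with PD (3.66%, background 1.78%), and 0 rose (background 0.78%). Of the 191 members, 24 had an unadjusted p under 0.05 for PD, against 1280 of all 12049 probes. Against the CH and LIF arrays alone, and with the median of arrays lacking PD as reference, Slc46a3 was the only member past 2-fold.

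Slc46a3, a carrier of the lysosomal membrane, had the largest range of all members. Its level was 9.10 untreated, 6.31 with PD, 7.54 with CH, 7.59 with LIF and 6.03 with PCL. The untreated array was thus highest, the CH and LIF arrays were close to each other, and the PD and PCL arrays were lowest. With PD it was 6.93-fold lower (log2 difference -2.79 ± 0.12), and it fell in the fit by 1.75 ± 0.13 (adjusted p = 4.31e-35). It was 2.95-fold lower with CH and 2.85-fold lower with LIF, and PCL lay 2.79 log2 above the sum of the 3 single differences. Against the mean of the other single-agent arrays, its difference was -1.26 with PD, but 0.59 with CH and 0.67 with LIF. The other lysosomal carriers did not share this: of 6 detected of the 7 listed, Slc46a3 was the only gene to pass any term, and Slc36a1 was not detected. As a description over the 5 arrays, among 233 other probes detected on at least 1 array with a range of 1 or more, the levels most like it were those of Lor (Pearson's r = 0.998), both probes of Zfp532 (0.993 and 0.991), Cd40 (0.985) and St6gal1 (0.984).

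Slc40a1, or ferroportin, is the exporter of iron from cells. Its level was 8.11 untreated, 7.01 with PD, 7.54 with CH, 7.69 with LIF and 6.50 with PCL. As for Slc46a3, the untreated array was highest and the arrays with PD were lowest. It was 2.14-fold lower with PD (-1.10 ± 0.10) and fell in the fit by 0.92 ± 0.13 (adjusted p = 1.65e-09). Against the mean of CH and LIF the PD difference was -0.60.

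Slc7a7 is the light chain of an amino acid exchanger that exports cationic amino acids and pairs with the heavy chain Slc3a2, whose probe was not detected. The brighter probe, ILMN_1240318, lay at 8.48 untreated, 7.19 with PD, 7.95 with CH, 8.02 with LIF and 7.02 with PCL. The other probe, ILMN_2723826, lay at 7.59, 7.02, 7.72, 7.59 and 6.57. Both were lowest on the arrays with PD, but only the first was highest untreated. The PD difference was -1.29 ± 0.14 for the first and -0.57 ± 0.22 for the second, and both probes fell in the fit, by 0.98 ± 0.13 (adjusted p = 1.4e-11) and by 0.79 ± 0.13 (adjusted p = 6.02e-07).

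Slc35d3 belongs to the nucleotide sugar carrier family and is known in mice for a role in platelet dense granules. It was detected on the untreated (6.04), CH (5.35) and LIF (5.27) arrays, and not with PD (4.87) or PCL (4.23). With PD it was at least 2.08-fold lower. Its term in the fit was -0.86 ± 0.19 (adjusted p = 0.000336), which takes the undetected PD and PCL levels as measured. It also entered the set through the arrays where it was high, so this p is no independent support.

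A smaller decrease was seen for the mitochondrial pyrimidine nucleotide carrier Slc25a33. It lay at 8.40 untreated, 7.90 with PD, 8.67 with CH, 8.62 with LIF and 8.40 with PCL. The PD array was the lowest, while PCL differed from untreated by -0.01. Its PD term in the fit was -0.50 ± 0.12 (adjusted p = 0.00321). The fatty acid carrier and acyl-CoA synthetase Slc27a2 lay at 6.51 untreated, 5.76 with PD, 5.88 with CH, 6.90 with LIF and 6.09 with PCL. It was lowest with PD and highest with LIF, and its PD term was -0.54 ± 0.15 (adjusted p = 0.0176). Without the intensity trend in the fit neither Slc25a33 (adjusted p = 0.0715) nor Slc27a2 (adjusted p = 0.0604) passed.

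**Figure D3:**
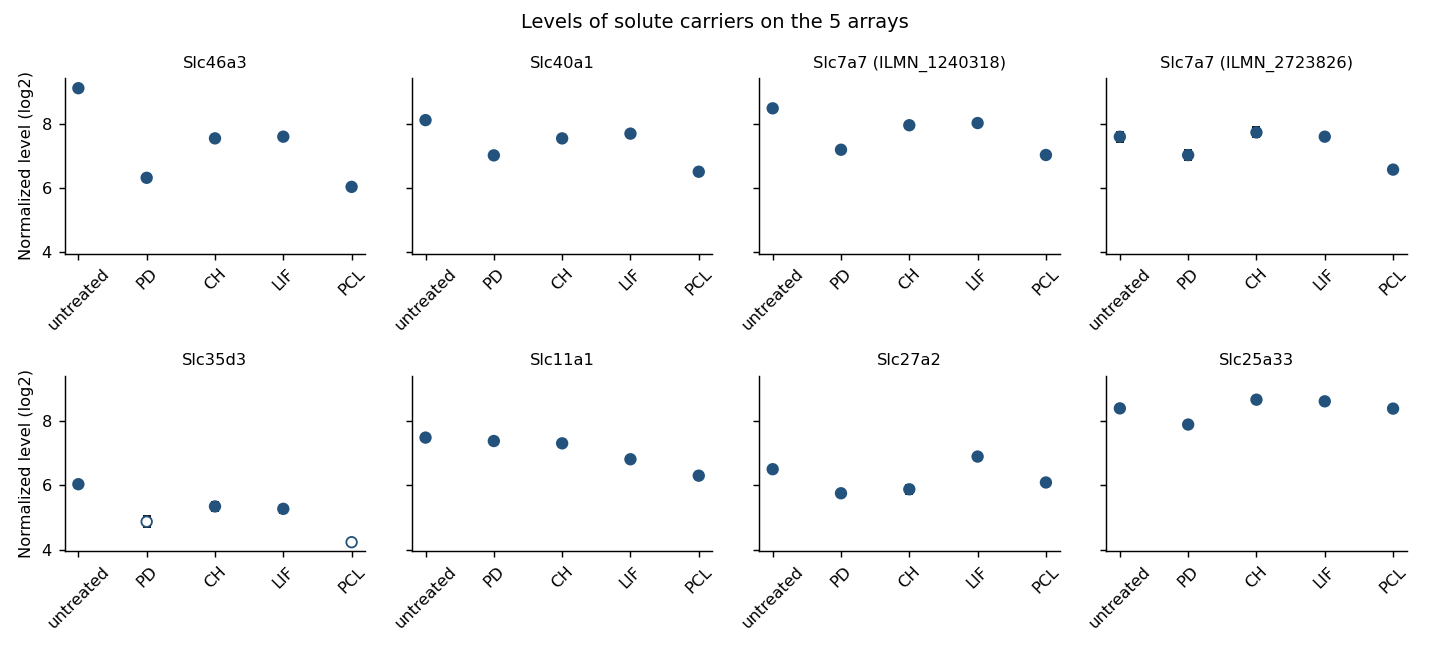
Normalized log2 level (vertical axis) on each of the 5 arrays for 8 probes of 7 carrier genes; bars are bead standard errors, mostly smaller than the points, and open points were not detected. Slc46a3 lies at 9.10 untreated and at 6.31 with PD, Slc11a1 is lowest with LIF and PCL, and Slc27a2 is highest with LIF.

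To show the upstream sequence of the carriers that fell with PD, the 250 bases before the annotated start are printed for 5 of the 6 genes, from RefSeq on GRCm38.p6. Slc40a1 has no window in that table. Slc7a7 has 5 windows, and the one printed was chosen because it holds a match to the amino acid response element. Of its other windows, the one that starts at 54417945 holds a second match at -141 and a TCF/LEF site at -243, and the remaining 3 hold none of the motifs. Capitals mark matches, on either strand, to that element (TGATGNAA), an ETS core (CCGGAA), an AP-1 site (TGANTCA), a TCF/LEF site (CTTTGA) or a STAT site (TTCNNNGAA).
Slc46a3, chr5:147894816-147895065, minus strand: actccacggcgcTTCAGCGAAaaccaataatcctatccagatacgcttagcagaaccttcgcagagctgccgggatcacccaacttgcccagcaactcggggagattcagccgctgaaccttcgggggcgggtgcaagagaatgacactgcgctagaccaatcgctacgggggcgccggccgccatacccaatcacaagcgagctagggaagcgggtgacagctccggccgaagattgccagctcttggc
Slc7a7, chr14:54417703-54417952, minus strand: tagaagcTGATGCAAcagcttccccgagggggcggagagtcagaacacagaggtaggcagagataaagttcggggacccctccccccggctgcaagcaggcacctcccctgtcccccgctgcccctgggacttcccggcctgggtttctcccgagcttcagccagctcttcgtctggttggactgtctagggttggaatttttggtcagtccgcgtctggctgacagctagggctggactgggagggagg
Slc35d3, chr10:19851460-19851709, minus strand: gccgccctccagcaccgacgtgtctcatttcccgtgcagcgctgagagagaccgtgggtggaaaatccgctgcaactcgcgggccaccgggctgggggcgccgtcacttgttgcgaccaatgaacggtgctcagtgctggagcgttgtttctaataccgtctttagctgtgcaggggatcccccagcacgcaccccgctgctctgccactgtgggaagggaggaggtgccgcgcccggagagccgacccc
Slc25a33, chr4:149774268-149774517, minus strand: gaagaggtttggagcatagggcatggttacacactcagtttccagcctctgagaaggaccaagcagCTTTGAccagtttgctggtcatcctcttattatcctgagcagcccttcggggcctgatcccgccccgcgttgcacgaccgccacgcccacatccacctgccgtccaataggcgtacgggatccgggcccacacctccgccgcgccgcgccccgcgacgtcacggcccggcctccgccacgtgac
Slc27a2, chr2:126552774-126553023, plus strand: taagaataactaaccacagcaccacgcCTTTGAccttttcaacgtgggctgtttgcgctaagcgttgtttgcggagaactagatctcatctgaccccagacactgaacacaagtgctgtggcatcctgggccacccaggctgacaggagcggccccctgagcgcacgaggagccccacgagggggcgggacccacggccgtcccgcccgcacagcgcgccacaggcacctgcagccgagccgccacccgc
Counted from the annotated start, Slc46a3 has a STAT site at -238, Slc7a7 the amino acid response element at -243, and Slc25a33 and Slc27a2 a TCF/LEF site at -184 and -223. With all windows counted, the TCF/LEF site was found in 3 of these 5 genes, Slc7a7, Slc25a33 and Slc27a2, and the others in 1 gene or none. Of the 5 windows of Slc7a7, only that starting at 54417945 held the TCF/LEF site. This count is by gene and cannot be set against the shares by window that follow. Slc35d3 has none of the 5 motifs. Over all 32851 windows of this length, the shares with a match were 3.45% for the amino acid response element, 12.0% for the ETS core, 6.75% for the AP-1 site, 13.8% for the TCF/LEF site and 7.02% for the STAT site. Over the 162 windows of 118 member genes they were 2.47%, 18.5%, 2.47%, 14.2% and 5.56%. A match describes the letters in the window only.

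The other members lowest with PD did not pass the fit. They were the mitochondrial folate carrier Slc25a32 (at least 1.42-fold lower), the potassium-chloride cotransporter Slc12a7 (-0.74 ± 0.26) and 1 of 3 probes of Slc35c2, a carrier linked to fucosylation (-0.70 ± 0.21, with 0.03 and 0.11 for its other probes). The glutamate carrier Slc1a3 was lower by -0.65 ± 0.07 and the zinc and manganese importer Slc39a8 by -0.51 ± 0.12. The highest members with PD also missed the fit. The organic anion carrier Slc22a7 was detected with PD (5.60) and CH (4.90) and was at least 1.64-fold higher with PD. The nucleoside carrier Slc28a1 was higher by 0.69 ± 0.20 and the mitochondrial glutathione carrier Slc25a39 by 0.62 ± 0.14. The carnitine carrier Slc22a5 was higher by 0.63 ± 0.16 on 1 probe, but by 0.04 and 0.07 on its others, and the mitochondrial ATP-Mg carrier Slc25a24 was at least 1.28-fold higher on 1 probe and differed by -0.20 on the other. The amino acid carriers Slc38a3 and Slc7a4 were higher by 0.47 ± 0.14 and 0.46 ± 0.19, and the monocarboxylate family member Slc16a6 (ILMN_3073406) by 0.39 ± 0.17. The other probes of Slc16a6 differed by 0.13 and -0.11 with PD.

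The CH comparison, on inhibition of GSK3, gave few calls. At least 2-fold lower was 1 of 176 members (0.568%, background 0.0708%), Slc46a3 at -1.56 ± 0.09, and 0 were at least 2-fold higher (background 0.0973%). In the fit 2 members fell with CH (1.05%, background 0.573%) and 0 rose (background 0.647%). For CH, 24 of 191 members had an unadjusted p under 0.05, against 1291 of all 12049 probes. Slc46a3 fell by 0.52 ± 0.13 (adjusted p = 0.0185), but its PCL level departed by 2.79 log2 from the additive sum that the fit assumes. The CH difference of Slc46a3 was -0.05 from the median of arrays lacking CH and 0.59 from the mean of PD and LIF. The sodium-coupled neutral amino acid carrier Slc38a2, whose gene is induced by amino acid shortage, fell on the probe ILMN_1244123 by 0.40 ± 0.11 (adjusted p = 0.049). That probe lay at 9.81 untreated, 9.41 with PD, 9.04 with CH, 9.37 with LIF and 9.20 with PCL, so untreated was highest and CH lowest. The other Slc38a2 probe lay at 7.71, 7.79, 7.78, 7.61 and 7.59 and differed by 0.07 ± 0.11 with CH. Neither member passed without the intensity trend (adjusted p = 0.434 for Slc46a3 and 0.346 for Slc38a2), and against the PD and LIF arrays alone 0 members were 2-fold different. At 1.5-fold, 5 members were lower with CH (2.84%, background 1.44%) and 2 were higher (1.14%, background 1.57%). Both of the higher, Slc25a46 and Slc5a11, were detected on the CH array alone and entered the set through it. Their bounds lay under 1.5-fold.

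Below Slc46a3 and Slc38a2, the lowest members with CH were Slc35d3 (-0.69 ± 0.18), Slc12a7 (-0.67 ± 0.20), Slc27a2 (-0.63 ± 0.17), Slc1a3 (-0.57 ± 0.07), Slc40a1 (-0.57 ± 0.09) and the zinc carrier Slc39a3, at least 1.22-fold lower and detected untreated only. Among the highest, 4 were detected on the CH array alone. The mitochondrial outer membrane protein Slc25a46 was at least 1.12-fold higher. The bounds of the other 3 were close to no difference. The potassium-chloride cotransporter Slc12a4 was at least 1.03-fold higher, the choline carrier family member Slc44a2 (ILMN_2681601) at least 1.05-fold, and the inositol carrier Slc5a11 at least 1.00-fold. Detected on all arrays were the mitochondrial glycine carrier Slc25a38 (0.42 ± 0.15 on ILMN_1256420, with 0.22 and 0.03 on its others), the endolysosomal peptide carrier Slc15a4 (0.42 ± 0.13 on ILMN_2790312, with 0.11 on its other), the zinc carrier Slc39a7 (0.42 ± 0.24 on ILMN_3032560, with 0.35 and 0.08 on its others) and Slc25a30 (0.40 ± 0.12).

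With LIF, 1 of 174 members was at least 2-fold lower (0.575%, background 0.0444%), again Slc46a3 at -1.51 ± 0.09, and 0 were at least 2-fold higher (background 0.0355%). At 1.5-fold, 5 were lower (2.87%, background 0.835%) and 1 was higher (0.575%, background 0.888%). Among the lower, Slc52a3 was not detected with LIF, and its bound lay under 1.5-fold. In the fit 1 member fell (0.524%, background 0.473%) and 1 rose (0.524%, background 0.249%). The one that fell was Slc11a1, a divalent metal carrier of phagosomes. Its level was 7.49 untreated, 7.39 with PD, 7.31 with CH, 6.82 with LIF and 6.31 with PCL, so the arrays with LIF were the lowest. It fell in the fit by 0.76 ± 0.14 (adjusted p = 1.74e-05), and the difference from untreated was -0.68 ± 0.10 with LIF and -1.19 ± 0.11 with PCL. The one that rose was Slc27a2, by 0.61 ± 0.15 (adjusted p = 0.01), although its level with LIF was only 0.39 ± 0.13 above untreated. It lay 1.08 above the mean of the PD and CH arrays. Without the intensity trend Slc27a2 did not pass (adjusted p = 0.128). Slc46a3 missed the LIF term (adjusted p = 0.0645), and passed it without background correction, with the larger offset and with 1 probe per gene.

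Other members low with LIF were Slc35d3 (-0.77 ± 0.16), the sugar phosphate carrier family member Slc37a3 (-0.75 ± 0.19), the riboflavin carrier Slc52a3 (at least 1.30-fold lower), the lipocalin receptor Slc22a17 (ILMN_2746664, at least 1.40-fold lower), Slc7a7 (ILMN_1240318, -0.46 ± 0.13) and Slc38a2 (ILMN_1244123, -0.43 ± 0.08). The other member probe differed by 0.00 for Slc7a7 and -0.10 for Slc38a2. That of Slc22a17 was detected neither untreated nor with LIF. Slc37a3 lay at 5.60 untreated, 5.14 with PD, 5.76 with CH, 4.85 with LIF and 5.66 with PCL, so PCL did not share the low value of LIF alone. High with LIF were 1 probe each of Slc35e2 (0.59 ± 0.17, with -0.07 on the other) and Slc22a5 (ILMN_2834916, 0.57 ± 0.20), the sodium bicarbonate carrier Slc4a8 (ILMN_1213975, at least 1.33-fold higher), Slc38a3 (0.43 ± 0.18), Slc25a44 (0.40 ± 0.10) and Slc25a38 (ILMN_1256420, 0.40 ± 0.13). Other member probes differed with LIF by -0.20 and 0.39 for Slc22a5, 0.01 for Slc4a8, and -0.10 and 0.05 for Slc25a38. The glucose carrier family member Slc2a6 and the Golgi carrier Slc35a5 were detected on the LIF array alone, at least 1.15-fold and 1.01-fold higher.

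PCL, the 3 agents together, had more members at least 2-fold lower, 6 of 176 (3.41%, background 0.644%), and 0 at least 2-fold higher (background 0.322%). They were Slc46a3 (8.43-fold lower, -3.07 ± 0.10), Slc35d3 (at least 2.35-fold lower), Slc40a1 (3.05-fold lower, -1.61 ± 0.09), both probes of Slc7a7 (-1.45 ± 0.13 and -1.02 ± 0.19) and Slc11a1 (2.28-fold lower, -1.19 ± 0.11). At 1.5-fold, 14 were lower (7.95%, background 3.59%) and 9 were higher (5.11%, background 2.77%). Among the higher, Slc17a1 and Slc7a6os were not detected untreated, and their bounds lay under 1.5-fold. PCL has no term of its own in the fit. With an offset of 50 in the background correction, and without background correction, 3 members remained past 2-fold, Slc46a3, Slc40a1 and Slc7a7. Next lowest were the drug and toxin extrusion carrier Slc47a1 (at least 1.63-fold lower) and Slc35c2 (ILMN_2894999, -0.79 ± 0.21), and the amino acid exchanger subunit Slc7a6 was lower by -0.77 ± 0.16 here but by -0.12 with PD.

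The members highest with PCL were the mitochondrial branched-chain amino acid carrier Slc25a44 and the mitochondrial carrier Slc25a30. Slc25a44 lay at 7.11 untreated, 7.31 with PD, 7.46 with CH, 7.51 with LIF and 7.93 with PCL. Slc25a30 lay at 5.41, 5.75, 5.81, 5.76 and 6.18. Both were above untreated on every treated array and highest with PCL, by 0.82 ± 0.11 and 0.78 ± 0.14. The neutral amino acid carrier Slc1a4 was similar, at 7.75, 7.94, 8.02, 7.89 and 8.45, a difference of 0.70 ± 0.08 with PCL. The sugar carrier family member Slc45a4 was higher by 0.72 ± 0.13 with PCL, while with the single agents it lay within 0.10 of untreated. Slc22a5 (ILMN_2651273) was higher by 0.71 ± 0.13, with -0.05 and 0.16 on its other probes, the fatty acid carrier Slc27a4 was at least 1.57-fold higher, Slc7a6os at least 1.25-fold higher, and the phosphate and urate carrier Slc17a1, detected with PCL only, at least 1.15-fold higher. None of these passed a term of the fit.

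The amino acid response carriers are those whose genes are induced when amino acids run short. Of 9 listed, 6 were detected and Slc3a2, Slc7a1 and Slc7a11 were not. Absence of expression does not follow, since Slc7a3 and Slc38a2 also had an undetected probe beside a bright one. In the fit 0 rose for any agent, and only Slc38a2 fell, with CH. The medians were -0.06 with PD, 0.07 with CH, 0.10 with LIF and 0.20 with PCL. Of 10 other amino acid response genes, all detected, 0 passed any term. The glucose and lactate carriers had 3 of 4 detected and 0 passing, with Slc16a1 not detected. Of 9 detected partners of carriers, such as sodium pump subunits and the kinases Wnk1 and Oxsr1, 0 passed, and Bsg was not detected. Of all detected probes, 0.78% rose and 1.78% fell with PD, 0.647% and 0.573% with CH, and 0.249% and 0.473% with LIF. A count of 0 in lists this small therefore does not set them apart from other genes.

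Between families, the medians with PD ran from -0.19 for carriers of nucleosides, vitamins and heme to 0.13 for monocarboxylate and citrate carriers. Most groups had few members, and each group holding a 2-fold member owed it to 1 or 2 genes. Among the 31 mitochondrial probes compared with PD, the lowest, Slc25a32, and the highest, Slc25a24, were each detected on only 1 of the 2 arrays and have the bounds given above. Among the metal ion carriers, Slc40a1 and Slc11a1 were the genes past 2-fold with any agent, while the zinc exporter Slc30a5 (ILMN_1221208) lay at 9.83, 9.69, 9.71, 9.76 and 9.88 and the copper importer Slc31a1 at 8.77, 8.84, 9.03, 8.94 and 9.06. Family members with the widest range included the amino acid carrier Slc38a10, at 5.29 untreated, 4.73 with PD (not detected), 5.19 with CH, 5.02 with LIF and 5.83 with PCL. The scaffold Slc9a3r1, which binds sodium-proton exchangers, lay at 9.80, 9.43, 9.38, 9.67 and 9.15, lowest with PCL. The sodium-potassium-chloride cotransporter Slc12a2 (ILMN_3146420) lay at 8.60, 8.60, 8.37, 8.48 and 8.67.

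In the remaining families with at least 3 members, the member with the widest range is given here with its level on each array. Slc12a7 lay at 5.91 untreated, 5.17 with PD, 5.24 with CH, 5.65 with LIF and 5.65 with PCL, so untreated was highest and PD and CH were lowest. The sodium bicarbonate carrier Slc4a8 (ILMN_2742937) lay at 5.02, 4.73 (not detected), 5.26, 5.03 and 4.98 in the same order. Slc39a8 was lower on every treated array than untreated, at 8.30, 7.79, 7.96, 8.09 and 7.53. The Golgi zinc carrier Slc30a7 (ILMN_2862418) lay at 6.74, 6.34, 6.77, 6.32 and 6.49, with PD and LIF low and CH equal to untreated within its bead SE. The other Slc30a7 probe differed in the LIF direction, by 0.19 against -0.42.

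Among carriers of organic solutes, the GABA carrier Slc6a13 was highest with PD and lay at 5.00, 5.29, 4.88, 5.09 and 4.71, the last not detected. The monocarboxylate family member Slc16a13 was highest with LIF, at 5.87, 5.81, 5.62, 6.15 and 5.78. The monoamine and nucleoside carrier Slc29a4 was highest with CH, at 5.85, 5.70, 6.14, 5.82 and 5.86. The bile acid family member Slc10a3 had a narrow range, with 6.87 untreated, 6.70 with PD, 6.62 with CH, 6.82 with LIF and 6.52 with PCL. The others were each detected on 1 array only. Slc2a6 lay at 5.10 with LIF and at 4.33 to 4.66 elsewhere, and Slc5a11 at 4.89 with CH and at 4.25 to 4.39 elsewhere. Slc17a1 lay at 5.10 with PCL and at 4.29 to 4.50 elsewhere, Slc25a46 at 5.05 with CH and at 4.21 to 4.27 elsewhere, and the peptide carrier Slc15a2 at 4.90 with PCL and at 4.32 to 4.86 elsewhere. Slc44a2 (ILMN_2681601) lay at 4.96 with CH and at 4.43 to 4.67 elsewhere.

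Slc7a7, Slc40a1 and Slc11a1 are also known from macrophages, and markers of those cells were therefore listed after the data had been seen. Of 8 such markers with a probe, Laptm5 and Lyz2 were detected, and the defining markers Ptprc, Itgam, Adgre1, Cd14, Fcer1g and Tyrobp were not detected on any array. The summed level of Laptm5 and Lyz2 was 215.9 untreated, 152.3 with PD, 207.7 with CH, 177.8 with LIF and 153.1 with PCL, and neither passed a term of the fit. Of 8 visceral endoderm markers with a probe, Amn, Dab2 and Sparc were detected, and Afp, Apoa1, Hnf4a, Rbp4 and Ttr were not. Their summed level was 1061 to 1503, and 0 passed. Few probes of any gene passed the fit, so 0 in lists this small does not set them apart. The part of other cells in the carrier differences was not tested.

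Genes with more than 1 member probe show how far probes of a gene differ on the same arrays. There were 32 such genes with 41 pairs of probes. The differences from untreated of the probes in a pair were apart by a median of 0.242 log2 with PD, 0.240 with CH, 0.282 with LIF and 0.220 with PCL. The gap was over 0.5 in 7, 6, 7 and 6 pairs. Slc7a7 was the only pair of the 41 in which both probes lay more than 0.5 below untreated with PD, and likewise with PCL.

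**Figure D4:**
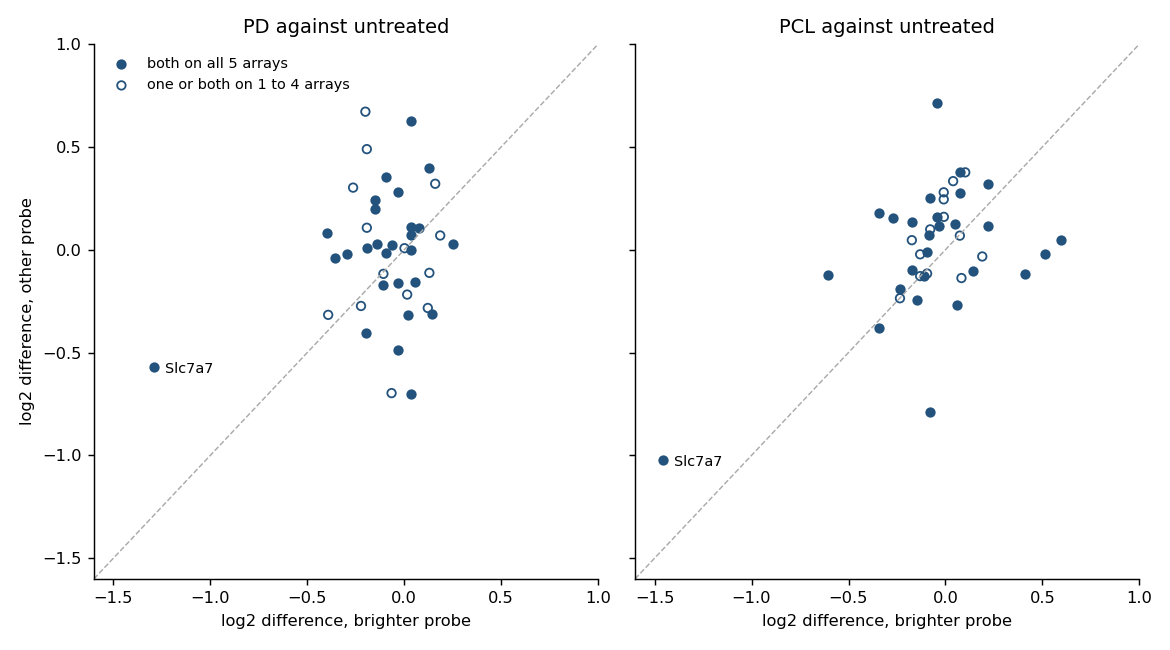
Log2 difference from untreated of the brighter probe (horizontal axis) and another probe (vertical axis) of the same carrier gene, for PD (left) and PCL (right); filled points are pairs detected on all 5 arrays, and the dashed line marks equal differences. Slc7a7 lies apart at -1.29 and -0.57 with PD and at -1.45 and -1.02 with PCL, and most other pairs scatter around 0.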

How the data were processed

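Total RNA of 5 cultures was measured on single-colour Illumina bead arrays, 1 array per group. Per the labels' protocols, 400 ng RNA was amplified (in vitro transcription, 12 h) with Cy-3 as label. The deposited scanner tables give, per the file headers, a linear signal intensity, a bead standard error and a detection p-value per probe. Per the submitters' processing notes, the authors used BeadStudio. A deposited table of processed intensity values holds whole numbers from 5 up, with empty cells and a median of 65 per array. How it was normalized is not given in the sources used. It served as an alternative, in which 16 replaced empty cells and lower values.

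Signals were corrected with limma 3.58.1 in R 4.3.3 (normexp from the detection p-values, offset 16), quantile-normalized and put on a log2 scale. The offset shrinks differences of dim probes. Groups came from the labels. Symbols came from the platform annotation, and all 191 member probes matched the reference gene table. The array files name no genome build, so the promoter coordinates are those of RefSeq on GRCm38.p6. Where only 1 of 2 arrays detected a probe, the bound sets the detected level against the lowest one that the other array detected, or the probe's own level there if higher.

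The additive fit (lmFit, eBayes with an intensity trend, Benjamini-Hochberg limit 0.05) was tested on simulated data of 12049 probes in 5 runs: 4.62%, 5.05% and 4.48% of calls were false for PD, CH and LIF, and it recovered 97.4%, 97.4% and 97.2% of probes altered 2-fold. At 1.5-fold it recovered 67.6%, 68.2% and 69%. The simulated arrays followed the additive model itself, with the fit's own pooled spread. These rates therefore leave out departures from additivity, such as that of Slc46a3, and the spread between cultures. They do not give the share of false calls in the real data. Named in each comparison were the 8 highest and 8 lowest members, every member 2-fold different and every member passing the fit, and in addition the member with the widest range in families with at least 3 members. Other members named, such as Slc1a3, Slc7a6, Slc30a5 and Slc31a1, were picked after their values were seen. The members, lists and rules were chosen with earlier results of these data known. The macrophage and visceral endoderm markers, and all motifs except the amino acid response element, were added after the data had been seen. Alternatives covered background correction, scaling, deposited values, offset, detection limit, 1 probe per gene, reference, fold limit and intensity trend.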

Additional observations from a re-analysis of the deposited data

How the results depend on the processing

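Under the alternatives for processing and probes, each member passing 2-fold or the fit kept its direction. Under the other references Slc46a3 did not: its difference with LIF was 0.0525 from the median of arrays lacking LIF and 0.67 from the PD and CH arrays, and with CH it was 0.59 from the PD and LIF arrays. Members at least 2-fold different with PD numbered 4, and 1 without background correction, 5 with 75th percentile scaling (1 higher), 8 with the deposited values (2 higher), 2 with an offset of 50, 16 at 1.5-fold, and 1 both with the median of arrays lacking PD as reference and without the untreated array. With CH the count was 1, and 2 with 75th percentile scaling, 3 with the deposited values, 7 at 1.5-fold, and 0 against both other references. With LIF it was 1, and 3 with the deposited values, 6 at 1.5-fold, and 1 against both other references, where the member was Slc27a2, higher, in place of Slc46a3, lower. With PCL it was 6, and 3 without background correction, 7 with 75th percentile scaling, 10 with the deposited values, 3 with an offset of 50 and 23 at 1.5-fold. The reference without the untreated array was chosen after seeing the data, and PCL has no other reference.

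The PD term called 7 members, and 5 without the intensity trend and 0 with the deposited values. With probes detected on all 5 arrays it called 7, with Slc35c2 in place of Slc35d3. With 1 probe per gene it called 7, Slc39a8 among them. The CH term called 2, and 1 without background correction, with 75th percentile scaling and with an offset of 50, 0 with the deposited values and without the intensity trend, and 3 with probes detected on all 5 arrays and with 1 probe per gene. The LIF term called 2, and 3 without background correction, with an offset of 50 and with 1 probe per gene, 1 without the intensity trend and 0 with the deposited values. For those 0 counts, 14, 20 and 10 members had an unadjusted p under 0.05 for PD, CH and LIF with the deposited values. Without the trend, 32 members had one for CH. Over all 12049 probes these counts were 916, 890 and 663, and 1314 for CH without the trend. Over all detected probes the fit called 94 up and 214 down for PD. These were 56 and 173 with 75th percentile scaling and 65 and 155 without the trend. For CH it called 78 and 69, and 39 and 30 with 75th percentile scaling and 35 and 17 without the trend. For LIF it called 30 and 57, and 17 and 51, and 13 and 5, in the same order. The cause of these shifts was not tested. No paired analysis was possible because each group has 1 array. Leaving out a replicate was not possible either. The bead standard error covers the array measurement only, and a difference from an array that did not detect the probe is only bounded, although counts and fits take the measured level.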
